A study of Mus musculus with 32 samples.

Results

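The comparison described here asks in which genes the mesentery of BALB/DBA F1 hybrid mice (titled CDF1) changed more or less than that of BALB/c mice, 3 days after pristane. It is a difference of responses: the change from untreated to treated in F1, minus the same change in BALB/c. Of 32 arrays in the series, 12 entered it, with 3 in each of 4 groups: untreated BALB/c, BALB/c at day 3, untreated F1 and F1 at day 3. Treated animals received 0.5 ml of TMPD (pristane) intraperitoneally, and every sample is mesentery. The labels give neither age nor sex, and leave it unstated whether each array is a separate animal, so the tests measure the spread between arrays. Of 18193 genes with a symbol on the array, 12590 autosomal genes passed the filter on dim signals and were tested.

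The mesentery is a sheet of fat, vessels and mesothelium with lymphoid tissue. Pristane is a hydrocarbon oil that draws monocytes and neutrophils into the peritoneal cavity and is known to induce type I interferon there. In BALB/c mice it leads in time to plasmacytomas, to which DBA mice are largely resistant. Type I interferons bind cell surface receptors and turn on antiviral genes, many of which carry the interferon-stimulated response element, built from repeats of GAAA. Interferon gamma, made mainly by NK and T cells, turns on guanylate-binding proteins, antigen-presentation genes and the chemokines Cxcl9, Cxcl10 and Cxcl11.

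The genes with a larger response in F1 included the interferon-induced genes Cxcl10, Gbp8 and Xaf1, the NK cell receptor Ncr1 and the macrophage genes Fcgr4 and Aif1. Those with a smaller response included Pla2g2e, the eosinophil marker Siglecf and the macrophage lectin Mgl2. On log2 signal, 29 genes differed at an adjusted p under 0.05 (limma, Benjamini-Hochberg over all genes tested), here named "called", which is 0.23% of those tested. Of these, 22 were higher in F1 (0.175%) and 7 lower (0.0556%). With each array centred on its median, which moved the median difference of all genes from -0.01 to 0.05, the split was 19 higher and 2 lower. The number of calls rests on 1 array outside the comparison, an untreated BALB/c array (bmsnmix replicate 2) that enters only the estimate of spread. It correlated at 0.883 to 0.891 with the other arrays of its group, which correlated with each other at 0.976 to 0.980. Without it 155 genes were called, all 29 among them, with 87 higher in F1 (0.691%) and 68 lower (0.54%). The sizes of the differences are the same in both fits, and calls of the second are named as made without the outlying array.

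The 2 responses were alike over most genes. In F1 4598 genes changed (36.5%), with 2354 higher and 2244 lower, and in BALB/c 4479 changed (35.6%), with 2315 higher and 2164 lower. Across genes, which are not independent replicates, the responses correlated at r = 0.853, and they share no array. Of 5776 genes called in either strain, 95.6% had the same sign in both. Of 3301 called in both, 3 had opposite signs. The median difference of responses was -0.01, with quartiles of -0.21 and 0.17, and 6052 genes (48.1%) were above 0.

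**Figure D1:**
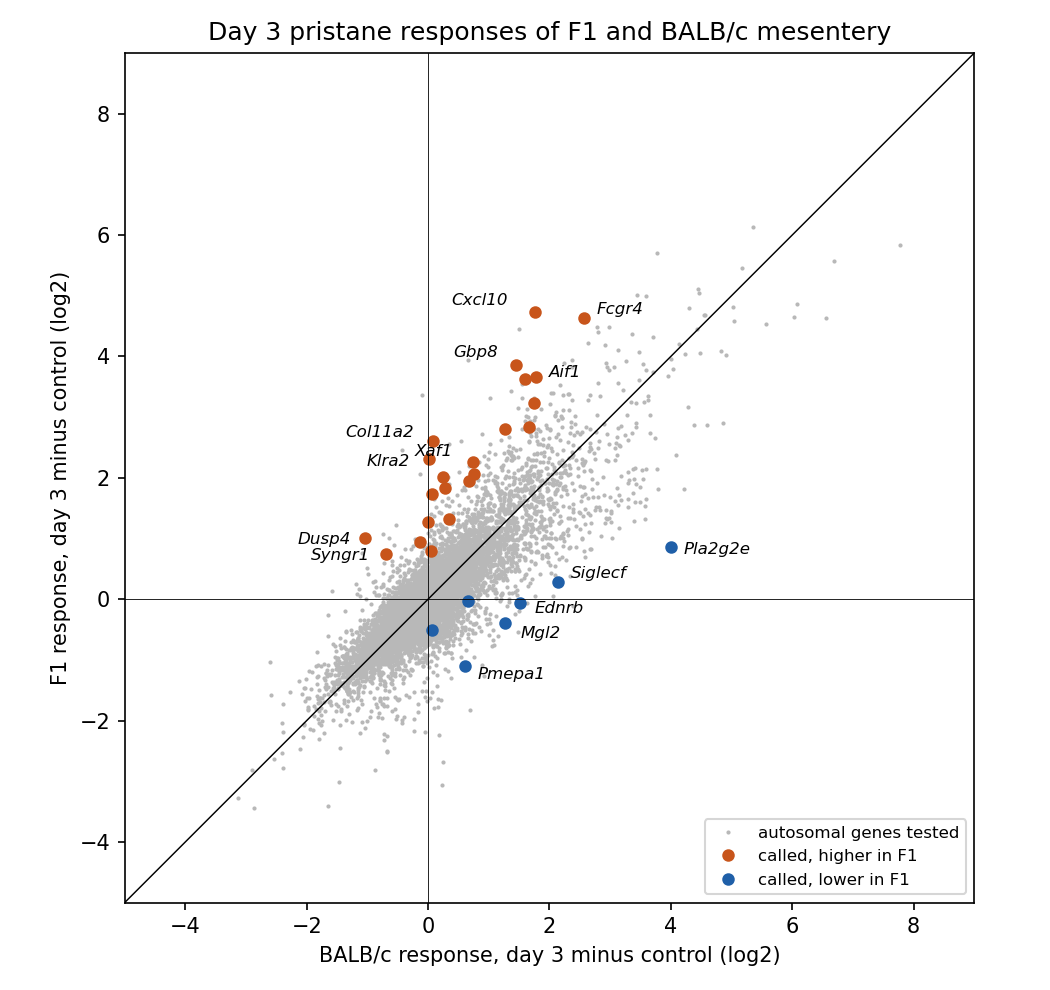
Each point is 1 autosomal gene, with the BALB/c response (day 3 minus control, log2) on the x axis and the F1 response on the y axis, and the line marks equal responses. The 22 genes called higher in F1 (orange) lie above the line and the 7 called lower (blue) below it, and most of the 12590 genes (grey) lie along it.

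Of markers of the labelled tissue, 19 of 22 adipocyte, 15 of 15 mesothelial and 18 of 19 endothelial genes passed the filter. Of all genes with a symbol, 13016 of 18193 did. So did 13 of 16 intestinal epithelial, 14 of 20 pancreatic, 12 of 16 neuronal and 5 of 12 skeletal muscle markers. Passing the filter therefore does not by itself identify the tissue. Array quality was even: median signals were 90.6 to 104.3 and correlations within a group 0.970 to 0.988. The beta-actin 3' to 5' ratio, a measure of RNA integrity, was 2.42 ± 0.275 (SD, n = 3) in BALB/c controls and 1.88 ± 0.298 at day 3. It was 2.10 ± 0.0416 in F1 controls and 1.56 ± 0.17 at day 3, lower after treatment in both strains (exact permutation p = 0.2 and 0.1, two-sided, where 0.1 is the smallest that 3 against 3 allows). Sex markers separated 1 group. Xist, the RNA of the inactive X chromosome, was at 12294 to 26178 on all BALB/c and treated F1 arrays and at 55 to 107 on the 3 untreated F1 arrays. Kdm5d, on the Y chromosome, was at 479 to 668 on those 3 and at 1.4 to 20.8 on the others. Treated F1 and treated BALB/c arrays are thus alike in this marker, while within the F1 response it changes along with treatment, so that sex and treatment cannot be told apart there. Of the 29 called genes, 26 also differed among treated arrays, where 360 genes did (2.86%), and 6 among controls, where 338 did (2.68%). The difference of responses is the treated difference minus the control difference, so that a called gene tends to differ in 1 of them. These counts show in which condition the difference lies and are no further support for the calls.

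Chemokines of the interferon gamma response gave some of the largest differences. Cxcl10, on chromosome 5, a chemokine that calls in NK and T cells through Cxcr3, was at 99.6, 80.9 and 113 on the BALB/c control arrays and at 239, 218 and 1077 at day 3. In F1 it was at 64.7, 100.7 and 75.9 on control arrays and at 3221, 2628 and 2483 at day 3. Every treated F1 array was above every treated BALB/c array, of which replicate 3 was the highest. The rise was 4.74 in F1 and 1.76 in BALB/c, a difference of 2.98 (SE 0.55, adjusted p = 0.0118). Leaving out each array in turn gave 2.60 to 3.69. The 2 sister chemokines, named after their values were seen, were called without the outlying array. Cxcl9 was at 59.9, 53.6 and 300.3 on treated BALB/c arrays and at 519.7, 2261 and 1281 on treated F1 arrays, and Cxcl11 at 39.0, 41.4 and 219 against 425, 2290.2 and 1031. BALB/c replicate 3 was again the highest of its group for both genes, and its values lay below all 3 F1 arrays. Cxcl16, a chemokine for Cxcr6 on T and NKT cells that also exists on the cell surface, rose from 281, 249 and 344 to 1072, 1333 and 1499 in F1 and from 294, 395 and 399.5 to 653, 557 and 670.1 in BALB/c. The difference was 1.31 (SE 0.23, adjusted p = 0.00938).

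Promoter windows are shown here for the called genes that hold the letters of the interferon-stimulated response element. Of 29 called genes, 24 have a RefSeq promoter window (GRCm38.p6), taken as the 250 bases before the start of the gene. The response element was searched on both strands as GAAA, any 2 bases, then a second GAAA. It was in 5 of the 24 genes (20.8%), all of them higher in F1, against 936 of 27025 genes in all (3.46%). In the type I interferon list described below it was in 10 of 27 (37%), and in the interferon gamma list in 8 of 11 (72.7%). The interferon gamma element TTCNNNGAA, which reads the same on both strands, was in 3 of the 24 genes (12.5%) against 8.13% of all. A match is a description of letters and not a measured binding site. The 5 windows are printed 5' to 3' on the gene's strand with the element in capitals. They are chr5:92348890-92349139 (minus strand) for Cxcl10, chr1:171018676-171018925 (plus) for Fcgr4, chr17:35176053-35176302 (minus) for Aif1, chr6:127446590-127446839 (plus) for Parp11 and chr8:10006383-10006632 (plus) for Tnfsf13b.
Cxcl10: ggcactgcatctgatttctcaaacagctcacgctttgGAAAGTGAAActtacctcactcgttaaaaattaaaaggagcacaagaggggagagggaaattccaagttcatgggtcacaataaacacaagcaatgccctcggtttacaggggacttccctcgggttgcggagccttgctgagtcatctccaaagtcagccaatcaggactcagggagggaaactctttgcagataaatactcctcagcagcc
Fcgr4: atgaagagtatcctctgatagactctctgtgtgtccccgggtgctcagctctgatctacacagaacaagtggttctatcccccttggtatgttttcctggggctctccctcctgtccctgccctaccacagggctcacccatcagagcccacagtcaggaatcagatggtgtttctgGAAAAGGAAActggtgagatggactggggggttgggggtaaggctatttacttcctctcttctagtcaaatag
Aif1: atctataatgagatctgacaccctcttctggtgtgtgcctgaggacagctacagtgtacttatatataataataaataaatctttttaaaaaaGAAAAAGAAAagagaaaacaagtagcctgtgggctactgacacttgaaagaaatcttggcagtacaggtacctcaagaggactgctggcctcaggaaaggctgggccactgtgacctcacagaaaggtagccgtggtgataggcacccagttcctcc
Parp11: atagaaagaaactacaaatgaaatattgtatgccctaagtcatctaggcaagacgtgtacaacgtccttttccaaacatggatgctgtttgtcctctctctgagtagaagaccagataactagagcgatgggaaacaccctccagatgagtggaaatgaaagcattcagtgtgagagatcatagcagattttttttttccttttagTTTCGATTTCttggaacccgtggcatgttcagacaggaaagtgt
Tnfsf13b: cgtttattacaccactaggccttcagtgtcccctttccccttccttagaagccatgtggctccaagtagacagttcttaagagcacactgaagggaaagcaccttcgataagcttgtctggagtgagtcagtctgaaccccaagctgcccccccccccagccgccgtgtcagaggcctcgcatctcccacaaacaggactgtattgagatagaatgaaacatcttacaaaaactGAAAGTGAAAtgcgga
The first capital lies 213 bases before the start in Cxcl10, 73 in Fcgr4, 157 in Aif1, 44 in Parp11 and 16 in Tnfsf13b. In Parp11 the element is on the opposite strand, so that its capitals read TTTC.

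Among guanylate-binding proteins and immunity-related GTPases, which attack membranes of intracellular pathogens, Gbp8 and no other was called with all arrays. Gbp2b, not on the interferon gamma list, was called without the outlying array, with a difference of 0.95. For Gbp2b F1 was below BALB/c by 0.91 among controls and differed by 0.04 among treated arrays. The values of Gbp8 follow. Gbp8 was at 373, 306 and 496.5 on treated BALB/c arrays and at 1099, 1199 and 2092 on treated F1 arrays, although F1 controls (80.0, 63.7 and 77.9) were all below BALB/c controls (104, 112 and 169). The difference was 2.42 (SE 0.39, adjusted p = 0.00423). Of 16 genes tested of the interferon gamma list, 16 had a larger response in F1, 9 of them at an unadjusted p under 0.05 and 0 lower, against 4.44% and 4.3% of all genes. Of the 16, 2 were called, Cxcl10 and Gbp8, and 4 without the outlying array, with Cxcl9 and Cxcl11. The median difference was 0.96, from median responses of 2.46 in F1 and 1.45 in BALB/c. Members that were not called had differences from 1.06 for Iigp1 and 1.00 for Irgm1 to 0.45 for Gbp7 and 0.25 for Gbp2, and Irf1, a transcription factor of the pathway, had 0.57. Leaving out treated BALB/c replicate 2 or 3 moved the list's median to 0.70 or 1.22.

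Type I interferon-stimulated genes had larger responses in F1 throughout, and for 1 of them the difference was called. All 37 tested of 41 had a positive difference, 27 of them at an unadjusted p under 0.05, and the median was 0.97 from median responses of 3.36 in F1 and 2.07 in BALB/c. In F1 36 rose, and in BALB/c 35 rose and 1 fell, Ifi27l2a. The summed signal of the list was 37090 to 44030 on F1 controls and 41180 to 49460 on BALB/c controls. At day 3 it was 189700 to 209900 in F1 and 77800 to 135100 in BALB/c, so that the treated strains did not overlap and the controls did. In DBA, the other parent, it was 43700 to 45760 at day 3 with a median response of 0.51. Only Xaf1 of the list was called with all arrays. Without the outlying array 5 were called: Xaf1, Dhx58 (1.60), a regulator of RNA sensing, Bst2 (1.34), which tethers budding viruses, Rtp4 (1.26) and Stat2 (1.26), a transcription factor of the pathway. Uncalled members with large differences were Ifit2 (2.07), Irf7 (1.71) and Mx1 (1.58), and Oas3 (0.29) and Parp14 (0.26) were the smallest. Leaving out each array in turn kept the list's median at 0.76 to 1.14. A list of interferon receptors, sensors and signalling genes did not share this, although Stat2 and Irf7 are counted above and not in it. Of 22 genes written for it, which included interferons, 15 were tested, and none of these was an interferon. Of the 15, 10 were above 0 and 1 passed an unadjusted p under 0.05. By limma 0 were called with or without the outlying array. The median difference was 0.04, from 0.67 in F1 and 0.64 in BALB/c.

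Dhx58 shows the pattern array by array. It was at 114, 151 and 105 in BALB/c controls and at 93.9, 116 and 109 in F1 controls. At day 3 it was at 1018, 751 and 1305 in BALB/c and at 2923, 2270.2 and 3111 in F1. The controls overlapped and the treated arrays did not.

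Xaf1, an interferon-induced gene that opposes inhibitors of apoptosis, differed between the strains already without treatment. It was at 49.3, 51.4 and 50.4 on BALB/c controls and at 1768, 1712 and 1645 on F1 controls. At day 3 it was at 101.2, 78.0 and 129 in BALB/c and at 8307, 8494 and 7911 in F1. The rise was 2.04-fold in BALB/c and 4.82-fold in F1 on mean signal, and the difference of responses was 1.51 (SE 0.19, adjusted p = 0.000152). The strains differed by 4.53 among controls and by 6.04 among treated arrays. BALB/c controls lie close to the offset of 24.9 added to every signal, which lowers their fold. A different probe set of the gene gave a difference of 1.05. DBA controls, at 2338 to 2898, were above the F1 controls.

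The Ifi200 family, DNA sensors and growth regulators encoded side by side on chromosome 1, had 6 members tested and 0 called by limma with or without the outlying array. At an unadjusted p under 0.05, 4 were higher in F1. The differences were 1.51 for Ifi209, 1.08 for Ifi207, 0.99 for Ifi204, 0.94 for Mndal, 0.78 for Ifi202b and -0.31 for Ifi203. For Mndal the strains lay 1.00 apart among controls, with F1 lower, and 0.06 apart among treated arrays. Members of the family are near-identical in places, so that a probe set can read more than 1 of them.

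Other interferon-linked genes were called singly. Parp11, an ADP-ribosyltransferase, rose from 442, 421 and 459 to 2109, 1191 and 2224 in F1 and from 438.5, 499 and 559 to 766, 641.5 and 1068 in BALB/c (difference 1.28, SE 0.27, adjusted p = 0.0412). In both strains treated arrays were above controls, and the treated strains did not overlap. Parp11, Tnfsf10, Tnfsf13b, Ms4a6b and Sertad3 fall outside the rule for named genes and are described with their values known. Tnfsf10 encodes TRAIL, a ligand that triggers apoptosis. It was at 319, 349.8 and 306 in F1 controls and at 909.8, 658 and 915 at day 3, while BALB/c went from 297.5, 341 and 354 to 306, 274 and 426. The difference was 1.27 (SE 0.25, adjusted p = 0.0188), and the BALB/c response was 0.00. Tnfsf13b encodes BAFF, the survival factor of B cells. It was at 209.5, 215 and 263 in F1 controls, at 410.3, 426.5 and 566 in F1 at day 3, and at 242 to 304 on treated BALB/c arrays against 282 to 308.5 on their controls. The difference was 1.08 (SE 0.19, adjusted p = 0.0101), made of a rise in F1 of 0.95 and a BALB/c value of -0.13.

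**Figure D2:**
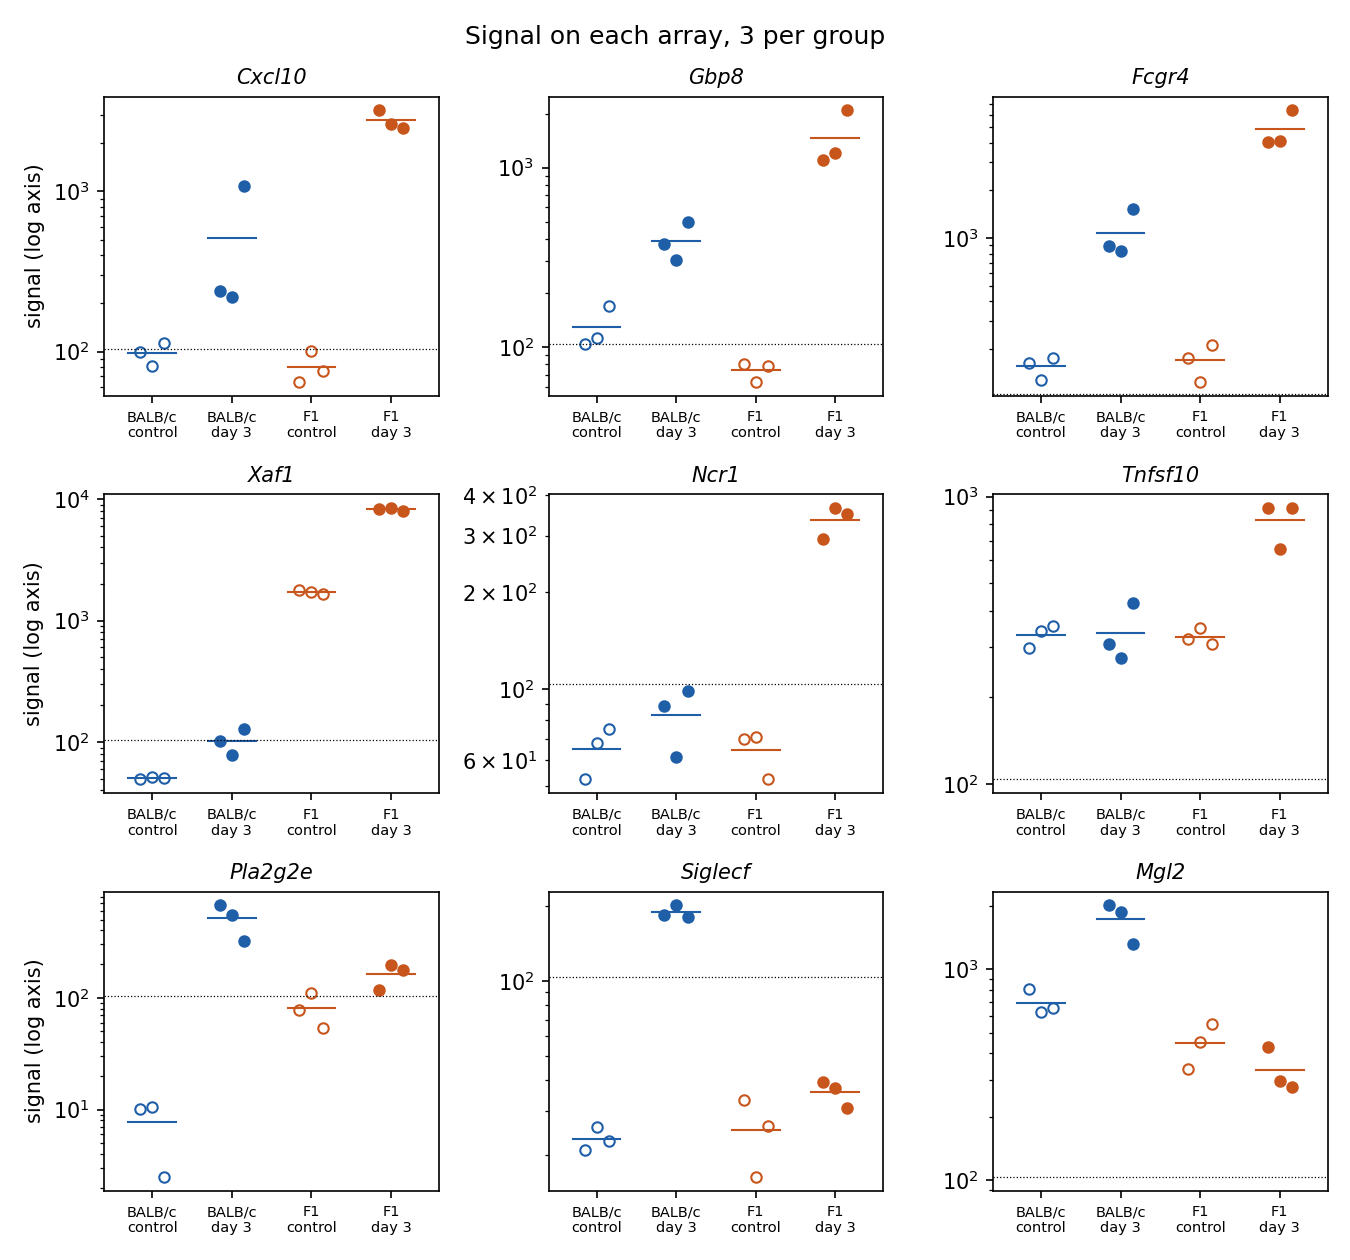
Signal on each of the 12 arrays on a log axis for 9 called genes, with open circles for controls, filled circles for day 3, bars for group means of 3 arrays and a dotted line at the dim filter of 103.7. Treated F1 arrays lie above all treated BALB/c arrays in Cxcl10, Gbp8, Fcgr4, Xaf1, Ncr1 and Tnfsf10 and below them in Pla2g2e, Siglecf and Mgl2.

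Of the NK cell markers, 1 was called. Ncr1, the activating receptor NKp46 of NK cells, was at 52.4 to 75 on all 6 control arrays of both strains. At day 3 it was at 88.9, 61.6 and 98.3 in BALB/c and at 292, 366 and 350.5 in F1, a difference of 1.76 (SE 0.32, adjusted p = 0.0118). Klra2, a receptor of the Ly49 family, is not on the list of NK markers, and which cells express it here was not tested. It was at 19.6, 48.5 and 58.7 on treated BALB/c arrays, around control values of 24.1 to 44.5 in both strains. On treated F1 arrays, the only ones of the comparison above the filter on dim signals, it was at 175, 328 and 302. Its difference was 2.29 (SE 0.40, adjusted p = 0.00938), and Ly49 genes are close in sequence, so that other members could add to the signal. Of 12 NK and cytotoxic markers tested, 11 had a positive difference and 7 passed an unadjusted p under 0.05, with 0 lower. The median was 1.06, from 1.95 in F1 and 0.83 in BALB/c. Ncr1 was called with all arrays, and Nkg7 (1.83), of cytotoxic granules, without the outlying one. Klrk1 (2.07), Gzmb (1.83), Xcl1 (1.56) and Ccl5 (1.20) were uncalled, and Prf1, the pore-forming perforin, had -0.33. In whole tissue, more cells of a type and more RNA per cell cannot be told apart. Of 15 T cell markers, 12 were above 0, 3 passed an unadjusted p under 0.05, 0 were called by limma with all arrays, and the median was 0.48, which became 0.26 without BALB/c day 3 replicate 2 and 0.17 without F1 day 3 replicate 2.

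Antigen presentation genes were not called with all arrays. Of 14 class I presentation genes, 14 were above 0, 8 passed an unadjusted p under 0.05, 0 were called by limma with all arrays and 4 without the outlying one. These were Nlrc5 (1.44), the transactivator of class I genes, Psmb9 (1.28) and Psmb10 (1.03), subunits of the immunoproteasome, and Tap2 (1.03), the peptide transporter. Nlrc5 was at 699, 559 and 1150.3 on treated BALB/c arrays and at 2384, 1772 and 2195 on treated F1 arrays, with controls at 356 to 434.5 in both strains. The list's median difference was 0.73, but the class I molecules H2-D1 (0.31) and H2-K1 (0.16) and their partner B2m (0.09) were among its lowest. Of 10 class II genes, 9 were above 0 and 5 passed an unadjusted p under 0.05, with 0 called by limma and a median of 0.67. H2-Ab1 (1.10) and H2-DMa (1.00) had the highest values.

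Macrophage genes split. Fcgr4, the activating receptor for IgG2 antibodies on monocytes and macrophages, was at 892, 831 and 1527 on treated BALB/c arrays and at 4060.3, 4102 and 6409 on treated F1 arrays. Controls of both strains were at 124 to 213, and the difference was 2.06 (SE 0.41, adjusted p = 0.0225). Aif1, the actin-binding protein Iba1 of macrophages, was at 494, 531 and 832 against 2502, 2883 and 3269, with controls at 140.5 to 245 (difference 1.88, SE 0.41, adjusted p = 0.0435). In both genes BALB/c replicate 3 was again the highest of its group and still under every F1 array. Of 26 monocyte and macrophage markers tested, 2 were called, these ones, 16 were above 0 and the median difference was 0.15, or 0.03 (without BALB/c day 3 replicate 1) to 0.36 (without F1 control replicate 3) with 1 array left out. Adgre1 (-0.08), which encodes F4/80, Csf1r (-0.34), the receptor for colony-stimulating factor 1, and Cd68 (-0.44) did not follow Fcgr4.

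Marco, a scavenger receptor of macrophages, had the largest difference of the genes called without the outlying array and was named after its values were seen. It was at 1.5, 4.6 and 2.3 on treated BALB/c arrays, no higher than the controls at 1.4 to 8.2, and at 489, 203 and 289 on treated F1 arrays. The F1 controls were at 4.8 to 9.4. On treated DBA arrays it was at 404 to 809. The fitted difference of 3.47 (SE 0.82) depends on the offset, since all BALB/c values lie under it. Best1, a chloride channel, was also under the offset on every BALB/c array (4.5 to 7.0) and at 139.8, 194 and 172 on treated F1 arrays, against 24.0 to 38.1 on F1 controls (difference 1.67, SE 0.35, adjusted p = 0.0327). On treated DBA arrays it was at 215 to 267. For both genes the BALB/c arrays give no readable response.

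More genes of myeloid and lymphoid cells were higher in F1. Pld4, an endosomal nuclease that limits sensing of nucleic acids, rose from 551, 497 and 688 to 4181, 3900.3 and 4413 in F1 and from 491, 772 and 706 to 1508, 1413 and 1911 in BALB/c (difference 1.53, SE 0.28, adjusted p = 0.0116). Themis2, a signalling adaptor of B cells and macrophages, was at 3542, 2855 and 4152 on treated F1 arrays against 1086, 1274 and 1580.2 (difference 1.49, SE 0.31, adjusted p = 0.0295). Ms4a6b, a membrane protein of the MS4A family, reached 7252, 7627 and 6829 in F1 and 2738, 2741 and 4108 in BALB/c (difference 1.19, SE 0.24, adjusted p = 0.0306). Pou2f2, the transcription factor Oct2 of B cells and macrophages, was at 289.7, 375 and 461 against 144, 159 and 233, although its F1 controls (71.7 to 107) were all below those of BALB/c (114 to 166). Its difference was 1.56 (SE 0.30, adjusted p = 0.0186). In all 4 genes the treated arrays of the strains did not overlap. Such separation in the treated arrays was seen in 28 of the 29 called genes and in 27.6% of all genes. The same treated arrays entered the choice of the 29 genes, so that this count is no separate support for them. Cd274, the checkpoint ligand PD-L1, was called without the outlying array, with 439, 419.7 and 621 on treated BALB/c arrays and 1299.9, 1188 and 1309 on treated F1 arrays (difference 1.56).

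Genes with a smaller response in F1 were led by Pla2g2e, a secreted phospholipase A2. It was at 10.2, 10.6 and 2.5 on BALB/c controls and at 675, 547 and 325 at day 3. In F1 it was at 77.2, 110.3 and 53.7 on controls and at 118, 198 and 176 at day 3. F1 was above BALB/c among controls by 1.66 and below it among treated arrays by 1.49, with no overlap in either. The rise was 4.001 in BALB/c and 0.85 in F1, a difference of -3.15 (SE 0.40, adjusted p = 0.000152). The BALB/c controls are under the offset, so that their rise is understated.

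The 2 eosinophil genes tested rose more in BALB/c than in F1. Siglecf, a sialic acid receptor that marks mouse eosinophils, was at 21.1, 26.0 and 22.8 on BALB/c controls and at 183, 201 and 179.7 at day 3. It was at 33.2, 16.4 and 26.3 on F1 controls and at 39.2, 37.3 and 30.9 at day 3, so that the F1 groups overlapped and the BALB/c groups did not. The difference was -1.86 (SE 0.40, adjusted p = 0.0412). Rnase2a, an eosinophil ribonuclease and the only other eosinophil marker tested of 10 written, was called without the outlying array. It was at 13475, 14376 and 9894.5 on treated BALB/c arrays against 4934, 2047 and 3229.9 on treated F1 arrays, with controls of both strains at 856 to 1442. Rnase2a rose in F1 as well, by 1.325 against 3.57 in BALB/c, and by 1.65 in DBA. Its difference was -2.24. The median difference of the eosinophil list, -2.05, stayed at -2.23 to -1.90 with 1 array left out. Over all alternatives it reached -0.05. In DBA, Siglecf was at 65.9 to 139 at day 3.

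Of genes of alternatively activated macrophages, the state set by interleukins 4 and 13, 1 was called. Mgl2, a galactose-binding lectin of macrophages and dendritic cells, rose from 806, 626 and 656 to 2021, 1884 and 1314 in BALB/c, and in F1 went from 339, 451 and 550.5 to 427, 295 and 277. F1 was lower in both conditions without overlap, by 0.63 among controls and by 2.30 among treated arrays, and the difference was -1.67 (SE 0.36, adjusted p = 0.0435). Of 18 genes of the list, 3 were above 0 (Timd4 0.78, Pdcd1lg2 0.15 and Folr2 0.13) and 15 below, 9 of them at an unadjusted p under 0.05 with 0 higher, and the median was -0.91, from 0.70 in F1 and 1.47 in BALB/c. The median of F1 against BALB/c was 0.26 among controls and -0.69 among treated arrays. Mgl2 was called, and without the outlying array also Mrc1 (-1.22), the mannose receptor, Lyve1 (-1.20), a hyaluronan receptor, and Cd163 (-0.99), the receptor for haptoglobin with haemoglobin. Mrc1 was at 10398, 11139 and 8774 on treated BALB/c arrays and at 6118, 3861 and 5269 on treated F1 arrays, with controls at 2473 to 3718. Arg1 (-1.95) and Chil3 (-1.93), the arginase and chitinase-like protein of this state, were uncalled, and both rose in each strain, by 5.83 and 4.63 in F1 and by 7.78 and 6.56 in BALB/c.

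Ednrb, the endothelin B receptor, rose in BALB/c from 2378, 2546 and 2371 to 6896, 7509 and 6617. In F1 it was at 2675, 2707 and 4149.7 on controls and at 3578, 2292 and 3235 at day 3, which overlap. The difference was -1.58 (SE 0.31, adjusted p = 0.0225). Ppp3ca, the catalytic subunit of calcineurin, rose in BALB/c by 0.66 and was at -0.02 in F1 (difference -0.68, SE 0.14, adjusted p = 0.0225). Cc2d2a, a protein of the ciliary transition zone, fell in F1 by 0.51 and was at 0.07 in BALB/c (difference -0.58, SE 0.12, adjusted p = 0.0412).

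Most cell division genes rose in each strain: 25 of 28 mitosis genes in F1 and 27 in BALB/c, and 18 of 31 DNA replication genes in F1 and 29 in BALB/c. The difference between the strains was called for 0 of them by limma with all arrays. Of the mitosis genes, 28 were below 0, 17 of them at an unadjusted p under 0.05, and the median difference was -1.29, from 1.51 in F1 and 2.91 in BALB/c. Without the outlying array 3 were called: Bub1 (-1.95), of the spindle checkpoint, Prc1 (-1.77), of the spindle midzone, and Ccna2 (-1.74), cyclin A2. Mki67, the proliferation marker Ki-67, had -2.40 and was not called. Both conditions added to the difference. Bub1 was at 12.3, 16.5 and 12 on BALB/c controls and at 45.4, 56.3 and 62.6 on F1 controls, and at day 3 at 478, 500.5 and 354 against 295, 172 and 218. F1 was thus higher among controls and lower among treated arrays, without overlap. The list's summed signal was 2443 to 3243 in BALB/c controls, 4179 to 4386 in F1 controls, 20960 to 22500 in BALB/c at day 3 and 9469 to 16110 in F1 at day 3. Of 31 DNA replication genes, 29 were below 0 and 21 passed an unadjusted p under 0.05 as lower, with a median of -0.79 and Ccne2, cyclin E2, called without the outlying array. A term for high or low Xist moved the medians of the lists to -0.95 and -0.55, and leaving out F1 day 3 replicate 2 moved that of DNA replication to -0.51.

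**Figure D3:**
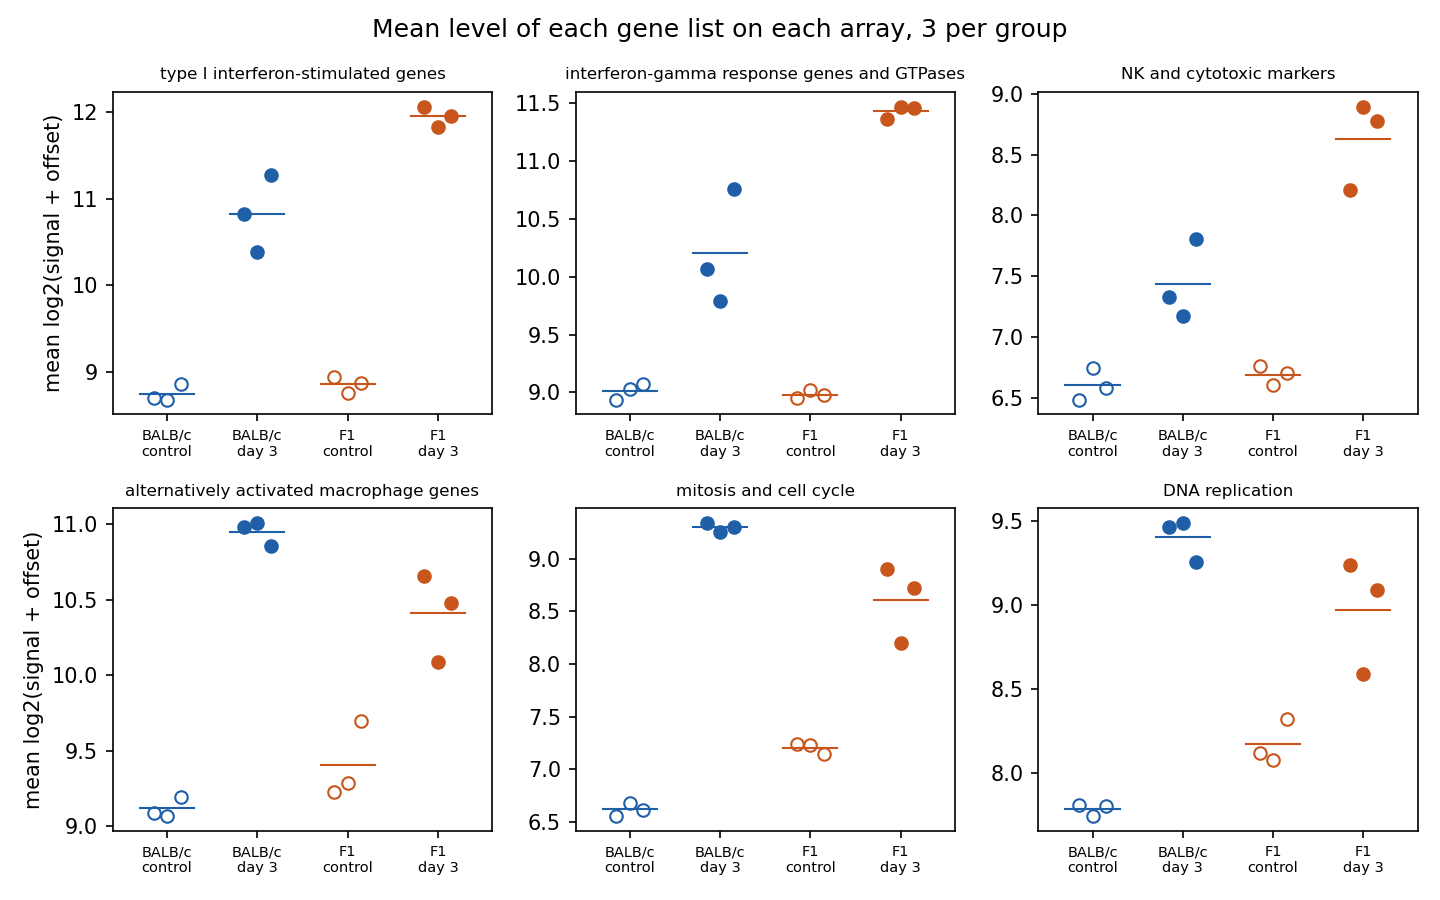
Mean log2(signal + offset) of each of 6 gene lists on each of 12 arrays, with open circles for controls, filled circles for day 3 and bars for group means of 3 arrays; the axes do not start at 0. In both interferon lists and the NK list the treated F1 arrays are above all treated BALB/c arrays while the controls overlap, and in both cell division lists the F1 controls are above the BALB/c controls and treated F1 arrays below treated BALB/c arrays.

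With all arrays, 3 genes had called responses of opposite direction in the strains. Of the 155 genes called without the outlying array, 6 did in that fit. The 3 are described here. Dusp4, a phosphatase that switches off MAP kinases, fell in BALB/c from 1976, 1098 and 1896 to 673, 869 and 758 and rose in F1 from 672.5, 1068 and 710 to 1752, 1749 and 1426. The difference was 2.06 (SE 0.45, adjusted p = 0.0435). Pmepa1, a target and inhibitor of TGF-beta signalling, rose in BALB/c from 629, 707 and 545 to 1029, 922 and 948 and fell in F1 from 3325, 4351 and 4048 to 2040.3, 1674 and 1688. F1 was above BALB/c in both conditions, by 2.59 among controls and 0.88 among treated arrays, and the difference was -1.71 (SE 0.30, adjusted p = 0.00938). Syngr1, a synaptic vesicle protein, fell in BALB/c from 665, 539 and 507 to 304, 375.5 and 342 and rose in F1 from 278, 236 and 262 to 484, 366 and 517 (difference 1.45, SE 0.31, adjusted p = 0.0412). Its treated arrays overlapped, and a second probe set above the filter gave -0.39, of the opposite sign. Of 17 further probe sets above the filter for the called genes, 16 had the sign of the one used, with that of Syngr1 as the exception.

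The remaining called genes were higher in F1. Col11a2, a chain of collagen XI, was at 34.5 to 97.4 on treated BALB/c arrays and at 265, 457 and 393 on treated F1 arrays, with 9.4 to 73.7 on controls (difference 2.52, SE 0.49, adjusted p = 0.0186). Sertad3, a transcriptional cofactor, was at 835, 849 and 887 on treated F1 arrays against 605, 549 and 692 (difference 0.74, SE 0.16, adjusted p = 0.0412). C130026I21Rik (2.04) and AW112010 (0.98) carry clone names and are not described.

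The strain difference was counted in each condition. In the fit without the outlying array, 768 of all 12590 genes differed among treated arrays and 717 among controls. Both contrasts are parts of the difference that chose the genes, so that the counts below describe them and are no further support. Of the 87 genes called higher in F1 without the outlying array, 72 also differed among treated arrays and 14 among controls. Of the 68 called lower, 24 differed among treated arrays and 36 among controls, the arrays that differ in Xist. Examples among these and other lower genes are Ncan, a neural proteoglycan, at 384, 584 and 676.5 on F1 controls against 37.1 to 74.7 on BALB/c controls and at 25.4 to 102 on treated F1 arrays, and the metallothionein Mt2, at 5546, 6381 and 12705 on F1 controls against 1996 to 2616. Mt2 was at 11472 to 13394 on treated BALB/c arrays and at 5887 to 9000.1 on treated F1 arrays. With the Xist term, whose size comes from arrays outside the comparison, 8 of the 29 genes were called: Pla2g2e, Xaf1, Pld4, Ncr1, Gbp8, Pou2f2, Ppp3ca and C130026I21Rik.

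**Figure D4:**
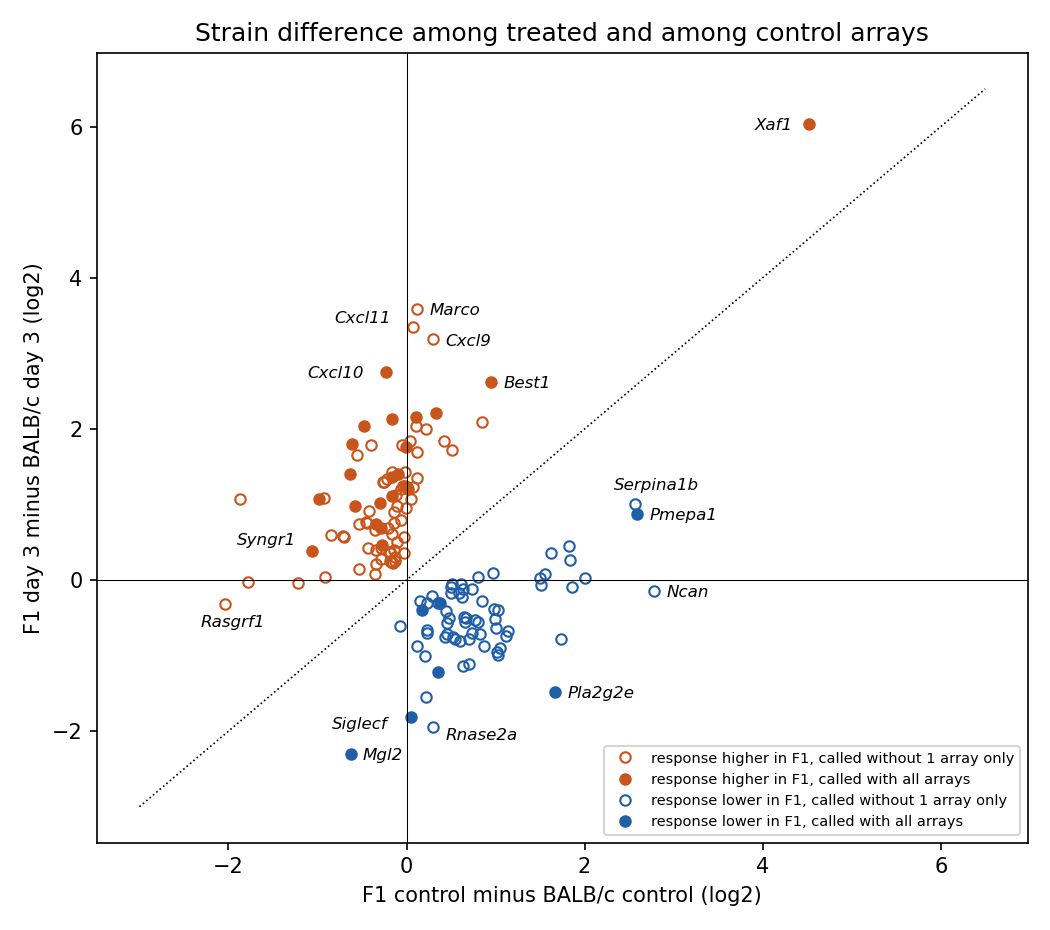
Each point is 1 of 155 genes called without the outlying array, with F1 control minus BALB/c control (log2) on the x axis and F1 day 3 minus BALB/c day 3 on the y axis; the dotted line marks equal differences, and filled points are the 29 genes called with all arrays. Most genes with a larger F1 response (orange) spread upward near 0 on the x axis, and many with a smaller one (blue) spread to the right of it.

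Large parts of the response did not separate the strains at these numbers of arrays. Adipocyte genes had median responses of -1.0 in F1 and -1.20 in BALB/c, lipid synthesis genes -1.08 and -1.18 (medians of 19 and 24 genes), and respiratory chain genes -0.58 and -0.62 (33 genes). By limma 0 genes of these lists were called, and 0, 2 and 1 were higher at an unadjusted p under 0.05. Acute cytokines and chemokines rose in both strains, 19 of 25 in F1 and 21 in BALB/c, with a median difference of -0.21, which became -0.31 without BALB/c day 3 replicate 1, -0.49 without F1 day 3 replicate 2 and -0.42 without F1 control replicate 2. Neutrophil markers had a median of -0.56, with 0 of 20 called by limma and 3 lower at an unadjusted p under 0.05, and the median was -0.87 without F1 control replicate 2 and -0.33 without F1 control replicate 3. All 23 collagen and fibrosis genes were below 0, with a median of -0.46, 6 at an unadjusted p under 0.05 and 0 called by limma. Their median of F1 against BALB/c was 0.33 among controls, the arrays that differ in Xist, and -0.11 among treated arrays. Markers of neighbouring tissue varied between single arrays. Intestinal epithelial markers summed to 36120 on F1 control replicate 1 against 1098 to 3692 on the other arrays of the 4 groups, and pancreatic markers to 8267 there and to 7149 on BALB/c day 3 replicate 2 against 450.2 to 2351. Their part in the results was not tested, and leaving out F1 control replicate 1 gave 21 calls, 18 of them among the 29.

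**Figure D5:**
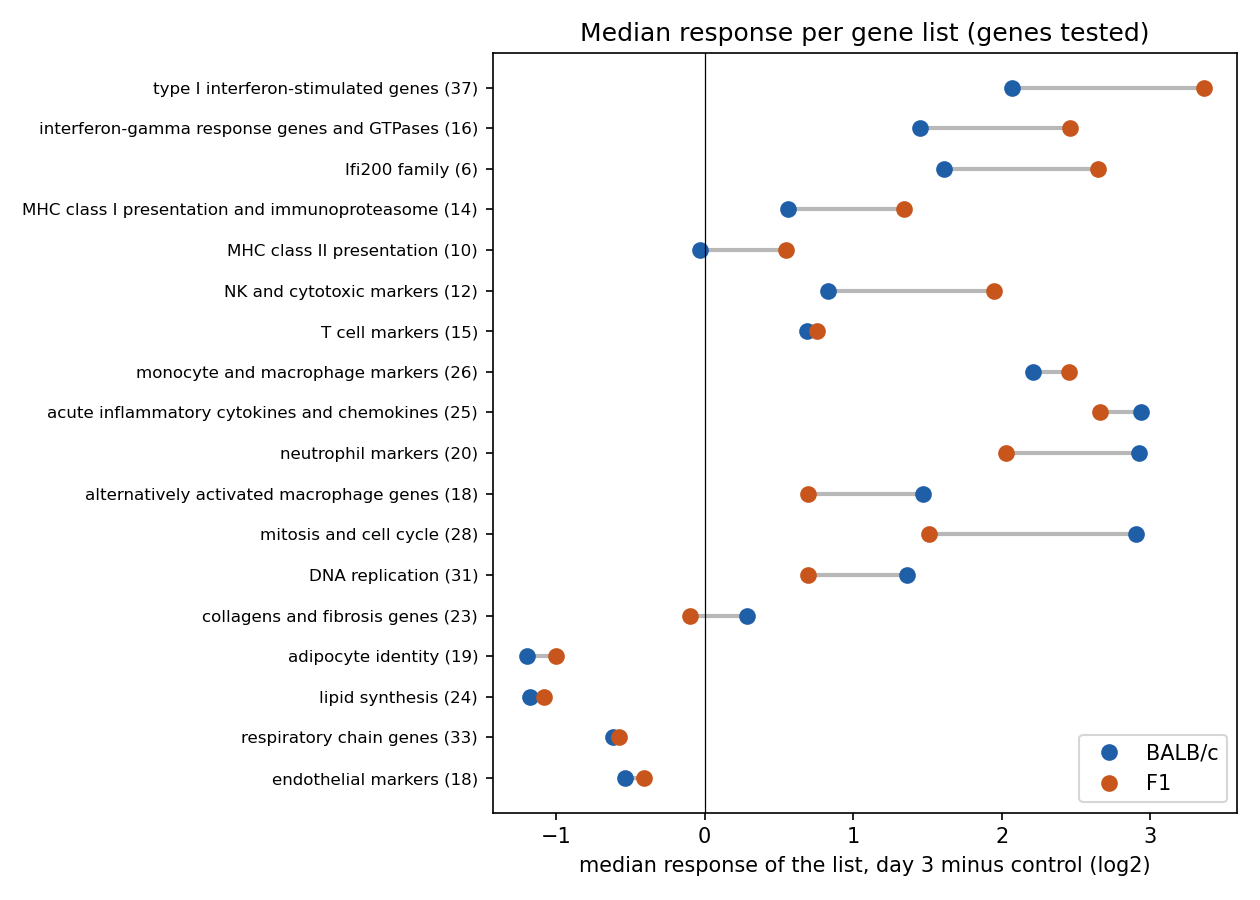
Median response (day 3 minus control, log2) of 18 gene lists in BALB/c (blue) and F1 (orange), with the number of genes tested in brackets. The interferon, antigen presentation and NK lists lie further right in F1, the cell division, alternatively activated macrophage and neutrophil lists further right in BALB/c, and the fat, respiratory chain and endothelial lists nearly coincide.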

How the data were processed

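RNA of whole mesentery was amplified and hybridised to Affymetrix Mouse Genome 430 2.0 arrays. The deposited values are signal intensities of probe sets on a linear scale, made by the authors with GCOS and MAS5 per the submitters' processing notes. Each array's mean after trimming 2% was 500, so they were already scaled. No depth applies to arrays, and their number limits the precision.

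Of 45101 probe sets, 34945 had 1 gene symbol, 932 several and 9224 none. A gene was read from its brightest probe set with 1 symbol. The deposited intensity was taken as log2(signal + 24.9), the offset being the 25th percentile of all values, so that changes of dim genes are understated. Genes above 103.7 (the median value) on at least 3 arrays were tested, 13016 in all, of which 12590 are autosomal and reported. Of the 29 called genes, 10 had a mean under 103.7 in at least 1 group. Within the comparison, Klra2 and Col11a2 were above it only on treated F1 arrays, and Siglecf only on treated BALB/c arrays. In the comparison these genes thus met the filter only through the group where they were high. One limma model (version 3.58.1, R 4.3.3) with 10 group means and an intensity trend was fitted to all 32 arrays, with 22 residual degrees of freedom. The difference of responses, and each contrast within it, was tested at an adjusted p of 0.05 (Benjamini-Hochberg over 13016 genes). The steps were tested on simulated data. The series text names an ANOVA, and an ordinary linear model was an alternative.

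The text names the 15 genes with the largest called difference in each direction, called members of gene lists and the Ifi200 family, leaving out clone-named genes. The comparison, its genes and the gene lists were chosen with earlier results of these data known. Other genes are named as chosen after their values were seen, among them all genes called only without the outlying array and all uncalled examples. Sex-linked genes were left out. Alternatives covered the offset, filter, scaling, arrays in the fit, probe sets and left-out arrays, and promoter windows came from RefSeq.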

Additional observations from a re-analysis of the deposited data

Results flagged for a closer look

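The difference between the strains' responses was itself tested, and 22 autosomal genes passed as higher in F1 and 7 as lower. In 3 of them both responses were called and ran in opposite directions: Dusp4, with a difference of 2.06, Pmepa1, with -1.715, and Syngr1, with 1.449. Syngr1 rests on 1 of its probe sets, since another above the filter gave -0.39.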

How the results depend on the processing

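All 29 called genes kept the direction of their difference under every alternative in which they were tested, and Xaf1 and Pla2g2e were called in each. The count of 29 became 168 (77 higher, 91 lower) from the 12 arrays alone, 263 (127 and 136) from the 18 arrays of the day 3 title codes, 155 (87 and 68) without the outlying array, 693 (383 and 310) with array weights and 8 (6 and 2) with the Xist term. Under the same 4 choices of arrays or weights, calls among treated arrays went from 360 to 722, 873, 768 and 1624 and among controls from 338 to 755, 895, 717 and 2028. Among controls it was 559 with the ordinary linear model and 88 with the Xist term. Probe sets taken singly gave 7043 calls in the F1 response and 6917 in the BALB/c response, of more features. The ordinary linear model gave 30 differences of responses, of which 8 were among the 29. Other alternatives gave 21 to 35, with 19 to 29 of the 29 among them.

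Leaving out each of the 12 arrays in turn gave 9 (without BALB/c day 3 replicate 2) to 55 calls (without BALB/c day 3 replicate 3), with 8 of the 29 genes called each time: Cxcl16, Gbp8, Pla2g2e, Klra2, Pmepa1, Xaf1, C130026I21Rik and Tnfsf13b. The other 21 lost their call in 1 to 11 of the 12 fits. Among them were Ncr1 (1), Cxcl10 (2), Fcgr4 (6), Mgl2 (9), Aif1 (10) and Siglecf (11). The count also fell by over 1.5 times without BALB/c day 3 replicate 1 (11), BALB/c control replicates 1 to 3 (13, 18 and 16), F1 day 3 replicate 3 (12) and F1 control replicates 2 and 3 (16 and 15). Over the same 12 fits the treated comparison gave 151 to 360 calls, the control comparison 155 to 320, the F1 response 3637 to 4553 and the BALB/c response 3699 to 4467. No paired analysis was possible because the labels give no replicate numbers shared between groups. Signals under the offset, as in BALB/c for Marco, Best1 and Pla2g2e, limit what a difference can show. Siglecf signals on control arrays and treated F1 arrays lay around the offset.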

Other observations

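Igk, the kappa light chain locus of antibodies, was called without the outlying array with a difference of 2.95 and was named after its values were seen. It was at 378, 549 and 274 on BALB/c controls and at 1255, 1157 and 1007 at day 3, and in F1 at 98.5, 131 and 48.7 on controls and at 1624, 6065 and 1433 at day 3. Treated F1 arrays were above all treated BALB/c arrays and F1 controls below all BALB/c controls, with F1 day 3 replicate 2 the highest of all. The strains differed by -1.87 among controls (adjusted p = 0.0275, limma with all arrays) and by 1.08 among treated arrays (adjusted p = 0.274). Other genes of the lineage were not called: 0 of 13 plasma cell and 0 of 13 B cell markers by limma with or without the outlying array, with 1 and 3 higher at an unadjusted p under 0.05, and medians of 0.08 and 0.62. Among controls 5 of the B cell markers were lower in F1. Probe sets of this locus can read several of its gene segments.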
